A study of Oryza sativa with 6 samples.

Results

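Known genes that set the size and shape of the rice grain were followed in maturing grain, 8 in all: GW2 (LOC_Os02g14720), GS3 (LOC_Os03g29380), GW5 (LOC_Os05g09520), GS5 (LOC_Os05g06660), SPL16 (also called GW8, LOC_Os08g41940), GL3.1 (LOC_Os03g44500), GL7 (LOC_Os07g41200) and GRF4 (LOC_Os02g47280). They were taken by locus ID, as a list of known genes and not by a threshold on their values. Of the 8 loci, 7 have a row in the deposited table of 55986 rows. GS3 is not analysed here. Messenger RNA came from grains of the mature period in 3 libraries of the mutant sg34 and 3 libraries of its wild type, Zhenong 34 (WT below). The labels name no mutated gene and do not say whether replicates were separate plants. The p-values therefore describe variation among these libraries only, part of which may be technical. Values are TPM, a relative transcript abundance corrected for gene length. TPM keep no depth, so the number of reads behind a value is unknown.

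As background, grain size in rice is set largely by the hull that encloses the grain, through how far its cells divide and expand before the grain fills. Some of these genes restrict growth. GW2 encodes a RING-type E3 ubiquitin ligase that limits grain width, GW5 a calmodulin-binding IQ-domain protein that limits width and restrains the brassinosteroid kinase GSK2, GL3.1 a phosphatase with Kelch repeats (PPKL1) that limits length, and GS3 an atypical G protein gamma subunit that limits length. The others promote growth. GS5 encodes a serine carboxypeptidase and SPL16 an SBP-domain transcription factor, both favouring wider grains, GL7 a LONGIFOLIA-type protein favouring longer grains, and GRF4 a growth-regulating transcription factor favouring larger ones. SPL16 is known to repress GL7.

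The deposited descriptions fitted these roles for 6 of the 7 genes: IQ-DOMAIN 31 for GW5, a serine carboxypeptidase-like protein for GS5, squamosa promoter-binding-like protein 16 for SPL16, a BSL2-type serine/threonine phosphatase for GL3.1, LONGIFOLIA 1 for GL7 and growth-regulating factor 4 for GRF4. GW2 is described as protein SIP5, but its nearest protein match in the table, LOC4328856, carries GW2 as a synonym in the RefSeq gene table. The locus IDs place GW2 and GRF4 on chromosome 2, GL3.1 on chromosome 3, GW5 and GS5 on chromosome 5, GL7 on chromosome 7 and SPL16 on chromosome 8.

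The libraries were unequal in ways that touch every comparison here. Across genes, log2 values of WT replicate 1 correlated with the sg34 libraries at 0.774 to 0.880, against 0.882 to 0.913 for WT replicates 2 and 3 with the same libraries. Its summed deposited level of 6 floral organ and hull markers was 85.4 TPM, against 13.8 to 24.4 TPM in the sg34 libraries and 17.95 and 32.4 TPM in WT replicates 2 and 3, and all 6 markers were highest there. On that scale WT replicate 1 was highest for 62.4% of the rows tested below. After the rescaling described below its hull sum was 51.4, against 19.6 to 24.5 in sg34 and 21.1 and 26.5 in the other WT libraries. Then 5 of the 6 markers were highest in WT replicate 1, as were 30.6% of tested rows. All 4 embryo and oil body markers were lowest there, with a sum of 1019 TPM against 3868 to 6351 TPM in sg34 and 4067 and 8284 TPM in the other WT libraries. Sums of 6 endosperm markers ran from 13628 to 19128 TPM in sg34 and from 8139.7 to 11658 TPM in WT. Endosperm transcripts were thus abundant throughout, but the sums of the lines did not overlap. After rescaling they ran from 17950 to 19413 in sg34 and from 6653 to 11385 in WT. Singly these markers went both ways: after rescaling 3 had positive and 3 negative log2 differences, sg34 minus WT, from -0.46 to 2.46. The sum of 4 green tissue markers was also highest in WT replicate 1, at 118.1 TPM against 15.8 to 48.7 TPM in sg34. WT replicates 2 and 3 had 5.56 and 20.8 TPM, and 3 of the 4 markers were highest in WT replicate 1. After rescaling the sum was 71.1 there, 22.6, 62.8 and 39.5 in sg34, and 6.54 and 17.0 in the other WT libraries. The hull marker DL and the green tissue marker CAB-b were listed at 0 in some libraries. The part of these marker levels in the results was not tested, and values without WT replicate 1 are given below for many of the genes named. In such bulk samples, fewer cells of a type and less RNA per cell cannot be told apart.

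GW2 was by far the most abundant of the 7 genes. It had 77.4, 84.6 and 77.1 TPM in the 3 sg34 libraries, against 100.3, 87.7 and 81.03 TPM in the WT libraries. The deposited values of the lines overlapped, with WT replicate 1 the highest, as for 5 of the 7 genes. Among these were GS5, SPL16 and GW5, which were not tested, while the share among tested rows was 62.4%. The mean of GW2 exceeded those of 98.6% of all rows in sg34 and 98.0% in WT. GL3.1 came next in both lines, and its highest library lay well below the lowest of GW2. Mean GW2 was 7.10 times mean GL3.1 in sg34 and 8.37 times in WT.

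GL3.1 had 9.47, 12.1 and 12.1 TPM in sg34, against 13.2, 8.67 and 10.3 TPM in WT. The deposited values overlapped. GRF4 had 2.12, 0.94 and 1.49 TPM in sg34 and 1.0, 0.90 and 3.76 TPM in WT. Its values were uneven within each line, and WT replicate 3 stood highest. GL7 had 0.78, 0.87 and 1.11 TPM in sg34 and 1.1, 1.35 and 2.8 TPM in WT. WT replicate 3 was again the highest, and the lines overlapped at sg34 replicate 3 and WT replicate 1. GRF4 and GL7 could not be ordered by level: their ranges overlapped in both lines, and GRF4 was above GL7 in 3 of 3 sg34 libraries and in 1 of 3 WT libraries.

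GS5, SPL16 and GW5 had the lowest levels. GS5 had 0.43, 0.57 and 0.40 TPM in sg34, against 1.86, 0.18 and 0.24 TPM in WT. WT replicate 1 alone passed 1 TPM, and the sg34 libraries lay between it and the other WT libraries. SPL16 was listed at 0.03, 0 and 0.07 TPM in sg34 and at 0.23, 0.03 and 0.07 TPM in WT. GW5 was listed at 0 in 4 of 6 libraries, at 0.08 TPM in sg34 replicate 2 and at 0.18 TPM in WT replicate 1. The ranges of SPL16 and GW5 overlapped in both lines, with SPL16 above GW5 in 2 of 3 sg34 libraries and 3 of 3 WT libraries. GS5 lay above both in every library.

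**Figure D1:**
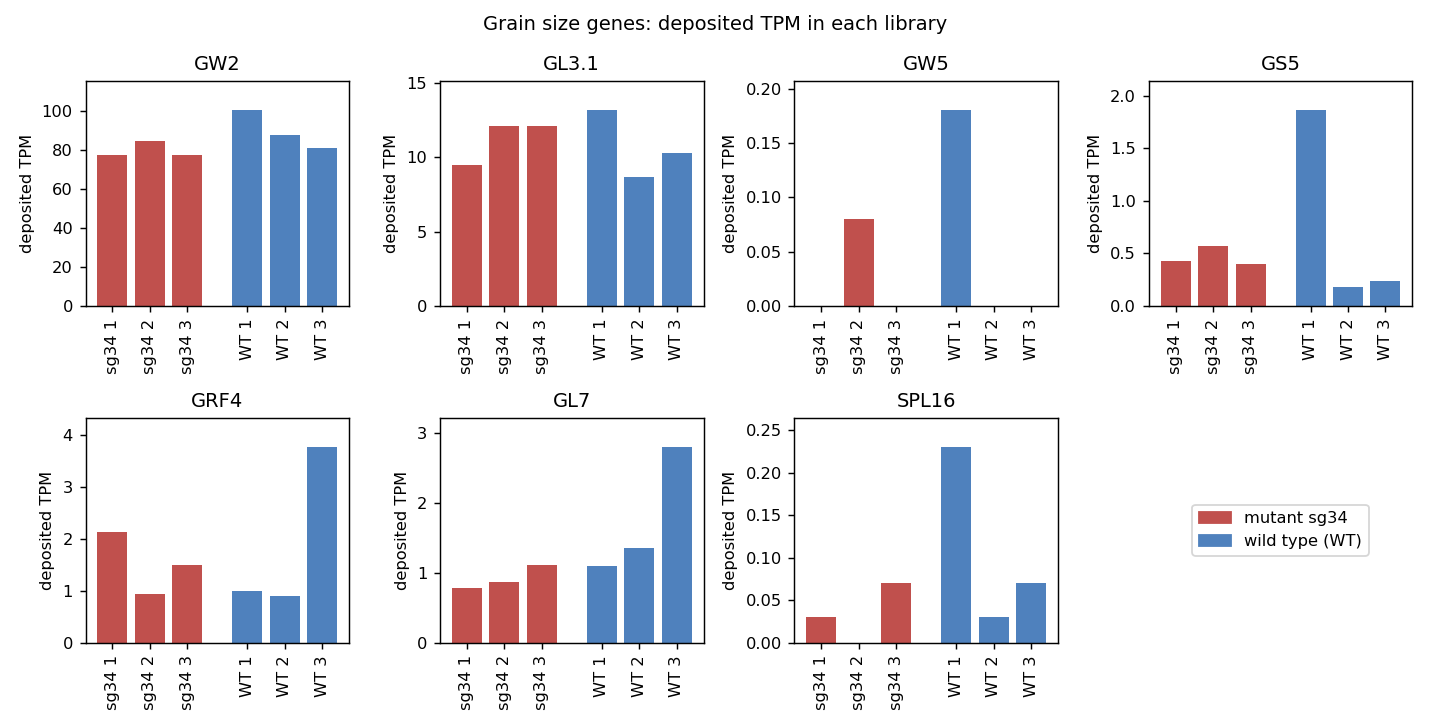
Bars show the deposited TPM of each of the 7 genes in each library, with sg34 (red) left of WT (blue) and a vertical scale of its own for each gene. GW2 lies between 77.1 and 100.3 TPM throughout, while GS5, SPL16 and GW5 each have their tallest bar in WT replicate 1.

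Does the mutant differ from its wild type in these genes at grain maturity? Only rows reaching 1 TPM in 3 or more libraries entered the test, among them GW2, GL3.1, GL7 and GRF4. Of these 4 genes, 0 passed the limma test at an adjusted p of 0.05 over all 16917 tested rows, and 1, GL3.1, had an unadjusted p under 0.05. Over all tested rows 3.76% passed, 1.89% higher and 1.87% lower in sg34, and 17.3% had an unadjusted p under 0.05. The direction of a small difference depended on scaling. Libraries were rescaled with trimmed mean factors, and without rescaling the median log2 difference of all tested rows was -0.43, against -0.01 with it. Log2 differences here are of log2(TPM + 1), sg34 minus WT, and understate the change of low genes. Those of the 4 genes had a median of 0.29, or -0.13 without rescaling.

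GL3.1 had the largest difference of the 4. After rescaling it stood at 13.5, 15.6 and 11.3 in sg34, against 7.92, 10.2 and 8.43 in WT. These groups did not overlap, as for 23.6% of all tested rows. On the deposited scale 0 of the 4 genes had groups apart, against 21.6% of tested rows. The log2 difference was 0.55 ± 0.19 (SE, n = 3 each), with a 95% interval of 0.10 to 1.01 and limma's adjusted p = 0.212. Without rescaling it was 0.07 (limma's adjusted p = 0.881). With limma library weights GL3.1 passed (limma's adjusted p = 0.0139), as did 23.1% of all tested rows in that fit, 12.6% higher and 10.5% lower. Over all alternatives its adjusted p ran from 0.0139 to 0.881.

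GW2 had rescaled values of 110.3, 109.2 and 72.4 in sg34, against 60.4, 103.2 and 66.2 in WT. The groups overlapped. Its log2 difference was 0.36 ± 0.29 (SE, n = 3 each; 95% interval -0.34 to 1.05; limma's adjusted p = 0.549) and turned to -0.16 without rescaling. The interval reaches from a level 0.79 times that of WT to one 2.07 times as high, and differences of such sizes lie within the error of these libraries. Leaving out 1 library moved the log2 difference between 0.22 (without WT replicate 1) and 0.59 (without WT replicate 2).

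GL7 and GRF4 had intervals of similar or greater width. The log2 difference of GL7 was -0.21 ± 0.27 (SE, n = 3 each; 95% interval -0.85 to 0.43; limma's adjusted p = 0.702), or -0.45 without WT replicate 1 and 0.011 without WT replicate 3. That of GRF4 was 0.22 ± 0.40 (SE, n = 3 each; 95% interval -0.73 to 1.18; limma's adjusted p = 0.797). GRF4 turned to -0.088 without rescaling, -0.54 with library weights, -0.052 without WT replicate 1 and -0.043 without sg34 replicate 1, and was 0.60 without WT replicate 3. It was called in 0 alternatives. After rescaling, the coefficient of variation of GRF4 was 52.9% in sg34 and 83.3% in WT. For GL7 these were 4.03% in sg34 and 53.9% in WT.

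GS5, SPL16 and GW5 did not reach the filter. Fitted with no filter on low values, they had log2 differences of 0.10, -0.056 and -0.0037 with limma's adjusted p of 0.876, 0.656 and 0.981. At such low TPM a pseudocount of 1 holds these differences near 0, so they say little. All 3 were highest in WT replicate 1 after rescaling too, as were 17.1% of rows above 0 that were not tested and 30.6% of tested rows. The summed deposited level of 7 cell cycle genes was also highest in that library, at 33.6, 52.1 and 115.6 TPM in sg34 and 208.9, 47.4 and 59.7 TPM in WT replicates 1, 2 and 3. After rescaling the gap was smaller, with a sum of 125.8 in WT replicate 1 and 108.5 in sg34 replicate 3. Within sg34 that sum was highest in replicate 3, where GS5 was lowest.

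**Figure D2:**
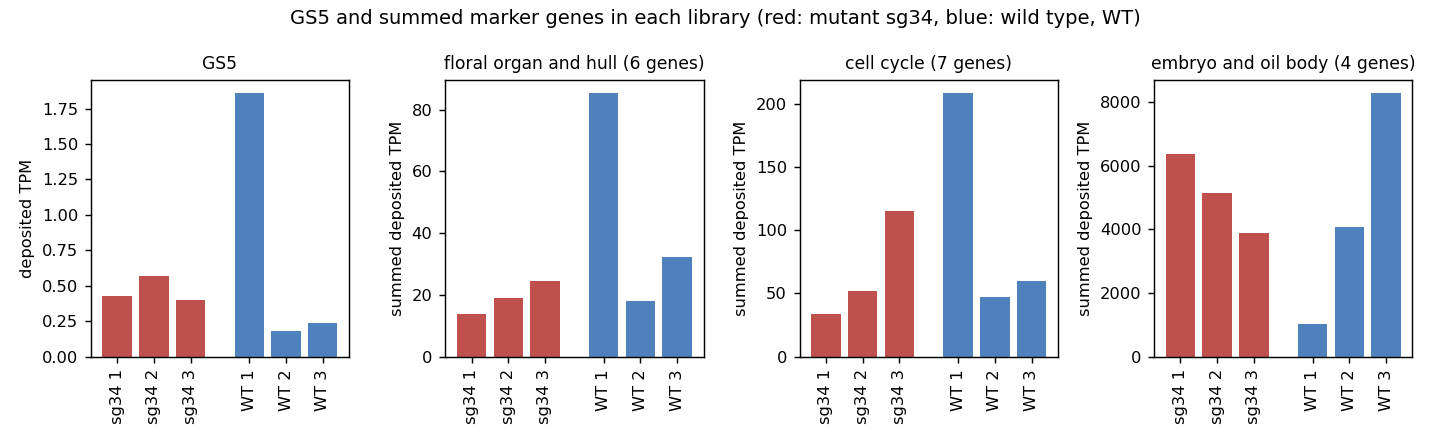
Bars show deposited TPM of GS5 and summed deposited TPM of floral organ and hull markers, cell cycle genes and embryo and oil body markers in each library, sg34 (red) left of WT (blue). WT replicate 1 has the tallest bar for GS5 at 1.86 TPM, for the hull markers at 85.4 TPM and for the cell cycle genes at 208.9 TPM, and the shortest for the embryo markers at 1019 TPM.

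Genes that work with each member were read from 9 lists: growth-regulating factors, SPL factors, PPKL phosphatases, G protein subunits, a MAP kinase module, brassinosteroid synthesis and signalling, other grain size genes, cell cycle genes and expansins. Leaving out the 8 genes above, these held 87 genes, of which 58 were tested. By limma 0 rose and 0 fell, and 6 higher and 8 lower had an unadjusted p under 0.05, against 8.82% and 8.44% of all tested rows. Their median log2 difference was 0.03, or -0.40 without rescaling, beside -0.01 and -0.43 for all tested rows. With library weights 13 of the 58 passed, near the 23.1% of all tested rows. Rescaled groups did not overlap for 7 genes with higher and 12 with lower values in sg34, against 10.9% and 12.7% of all tested rows.

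GL3.1 belongs to a family of 3 Kelch-repeat phosphatases, whose relative amounts no library factor can change. GL3.1 took 41.4%, 45.1% and 37.8% of their summed TPM in sg34, against 32.1%, 33.5% and 31.6% in WT. Every sg34 library lay above every WT library. Such separation of shares was not particular to GL3.1 among the 3 families. Shares also lay apart, higher in sg34, for GRF7, GRF8 and SPL15. They lay apart, lower in sg34, for PPKL2, GRF5, SPL3, SPL4, SPL6, SPL11, SPL14 and SPL19. The mean share was 41.4% ± 3.6 in sg34 and 32.4% ± 1.0 in WT (SD, n = 3 each), a difference of 9.0 percentage points, with 7.17 to 10.8 points when any library was left out. The two-sided exact permutation p was 0.1, the smallest that 3 against 3 libraries allow, and 0.3 after Benjamini-Hochberg adjustment over the 3 families examined in this way. PPKL2 took 41.4%, 38.6% and 43.8% in sg34, against 46.8%, 49.0% and 48.2% in WT, and PPKL3 the remainder. Of the 3 tested phosphatase genes 0 passed by limma and 1, GL3.1, had an unadjusted p under 0.05. The log2 difference of PPKL3 was 0.07 (limma's adjusted p = 0.843), or -0.38 without rescaling. Rescaled groups lay apart, higher in sg34, for 2 of the 3 genes, GL3.1 and PPKL3, and for 10.9% of all tested rows. The share was examined after the values had been seen. GL3.1 and PPKL3 carry the same deposited description and may share reads, so their separate values are uncertain.

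**Figure D3:**
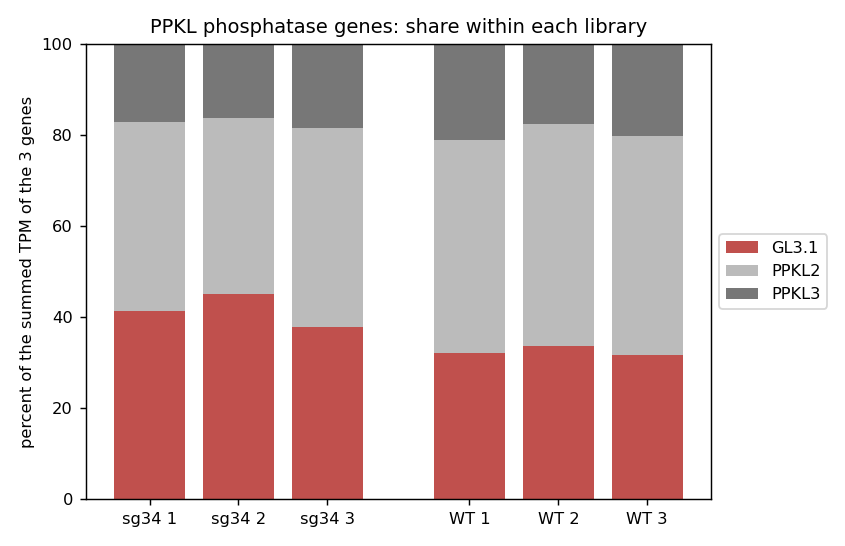
Stacked bars show the percent of the summed deposited TPM of GL3.1, PPKL2 and PPKL3 held by each gene in each library, sg34 left of WT. GL3.1 (red) holds 37.8% to 45.1% in the sg34 libraries and 31.6% to 33.5% in the WT libraries.

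The phosphatase acts, as background, in brassinosteroid signalling, the steroid hormone pathway that GW5 and GRF4 also meet. Of 9 tested genes of that list 0 passed by limma, and 2 higher and 0 lower had an unadjusted p under 0.05, beside 8.82% and 8.44% of all tested rows. These were the receptor gene BRI1 and its co-receptor gene BAK1. In the list 8 log2 differences were positive and 1 negative, with a median of 0.07, or -0.30 without rescaling. BRI1 had 6.05, 5.61 and 7.48 TPM in sg34, against 6.56, 3.97 and 5.89 TPM in WT, values that overlapped until rescaled. Its log2 difference was 0.65 ± 0.17 (SE, limma's adjusted p = 0.112), or 0.20 without rescaling, and with library weights it passed (limma's adjusted p = 0.0195). BAK1 had 9.17, 9.03 and 10.7 TPM in sg34 and 11.7, 8.01 and 9.13 TPM in WT, with a log2 difference of 0.49 ± 0.19 (SE, limma's adjusted p = 0.256, or 0.0251 with library weights), or 0.015 without rescaling. GSK2, the kinase that GW5 restrains, had 1.17, 1.25 and 2.57 TPM in sg34 and 4.18, 0.65 and 1.58 TPM in WT. Its log2 difference of 0.25 (limma's adjusted p = 0.673) turned to -0.11 without rescaling. It was 0.50 without WT replicate 1 and 0.019 without WT replicate 2.

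GW2 acts in ubiquitin-dependent protein turnover. WTG1, a deubiquitinating otubain that limits grain width, had 16.8, 20.9 and 31.97 TPM in sg34, against 64.8, 20.0 and 32.2 TPM in WT. Only WT replicate 1 stood out, and the log2 difference of -0.11 (limma's adjusted p = 0.837) turned to 0.11 without that library.

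For the G protein complex, to which GS3 belongs, the other subunits were examined. RGA1, the alpha subunit, had 8.14, 8.04 and 13.0 TPM in sg34, against 25.8, 15.5 and 19.7 TPM in WT. Every sg34 library lay below every WT library, before and after rescaling (groups apart in either direction: 21.6% and 23.6% of tested rows). The log2 difference was -0.51 ± 0.16 (SE, n = 3 each; limma's adjusted p = 0.186), or -1.0 without rescaling, and with library weights it passed (limma's adjusted p = 0.0142). RGB1, the beta subunit, had a log2 difference of -0.29 (limma's adjusted p = 0.515) and the gamma subunit gene RGG2 one of -0.37 (limma's adjusted p = 0.560). DEP1, a gamma subunit related to GS3 that shapes panicle and grain, was not tested and lay between 0.18 and 0.26 TPM in all 6 libraries. Of the 3 tested genes of the list 0 passed by limma, and 1, RGA1, was lower with an unadjusted p under 0.05, as were 8.44% of all tested rows.

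A MAP kinase cascade that controls cell number in the hull was examined next. MAPK6 had 10.2, 13.3 and 17.6 TPM in sg34, against 62.2, 25.8 and 26.6 TPM in WT. These groups did not overlap, as for 21.6% of tested rows on the deposited scale. The log2 difference of MAPK6 was -0.83 ± 0.23 (SE, limma's adjusted p = 0.134). MKK4, the kinase upstream of it, had 5.72 to 7.31 TPM in sg34 and 7.58 to 21.7 TPM in WT, again without overlap, and a log2 difference of -0.34 (limma's adjusted p = 0.430). Without WT replicate 1 the log2 difference was -0.64 for MAPK6 and -0.17 for MKK4. Of the 3 tested genes of this module 0 passed by limma, and 1, MAPK6, was lower with an unadjusted p under 0.05, against 8.44% of all tested rows.

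SPL16 held only 0.056%, 0% and 0.095% of the summed TPM of the 19 SPL genes in sg34, against 0.31%, 0.053% and 0.094% in WT. Of the family, 10 genes were tested, 0 passed by limma, and 2 higher and 1 lower had an unadjusted p under 0.05, against 8.82% and 8.44% of all tested rows. Their log2 differences were positive for 5 and negative for 5. Rescaled groups did not overlap for 3 genes higher and 2 lower in sg34, against 10.9% and 12.7% of all tested rows. SPL15 was the most abundant, with 27.5, 28.5 and 38.4 TPM in sg34 and 26.2, 24.4 and 29.9 TPM in WT. Its log2 difference was 0.72 ± 0.25 (SE, limma's adjusted p = 0.207, or 0.0219 with library weights), or 0.21 without rescaling and 0.49 without WT replicate 1. SPL15 took 48.7% to 52.1% of the family sum in sg34, against 35.4% to 42.9% in WT.

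SPL19 had 0.59, 0.35 and 0.48 TPM in sg34, against 2.1, 1.42 and 1.77 TPM in WT. These groups, at low levels, did not overlap, as for 21.6% of tested rows on the deposited scale. SPL19 had a log2 difference of -0.64 ± 0.18 (SE, limma's adjusted p = 0.129). With library weights it passed (limma's adjusted p = 0.0103), as did 23.1% of tested rows. SPL14, which governs tillering and panicle branching, had 1.12, 1.76 and 1.48 TPM in sg34 and 2.88, 2.67 and 3.74 TPM in WT, groups that overlapped only after rescaling, with a log2 difference of -0.39 ± 0.24 (SE, limma's adjusted p = 0.430). SPL11 had 1.59 to 2.22 TPM in sg34 and 3.02 to 4.13 TPM in WT (limma's adjusted p = 0.373, or 0.0306 with library weights). Its log2 difference was -0.36. Without WT replicate 1 the log2 difference was -0.56 for SPL14 and -0.48 for SPL11.

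**Figure D4:**
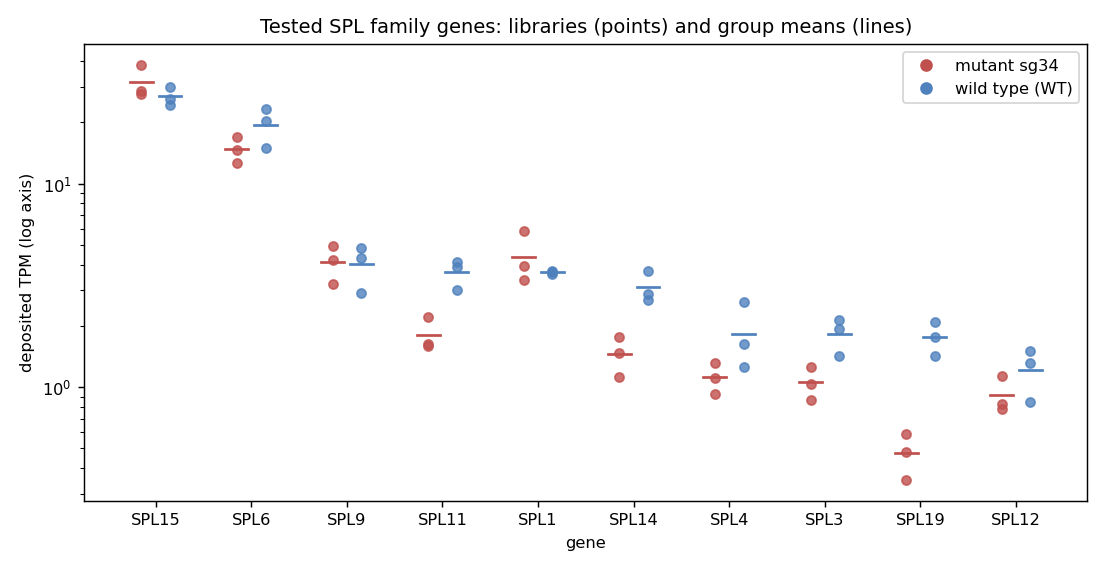
Points show the deposited TPM, on a log axis, of the 10 tested SPL genes in the 3 sg34 (red, left) and 3 WT (blue, right) libraries of each gene, with lines at the group means. SPL19, SPL14, SPL11 and SPL3 have their sg34 points below all WT points on this scale, and SPL15 is the most abundant in both lines. After rescaling, log2 differences are positive for 5 of the 10 genes and negative for 5.

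Near GL7 lies CYP78A13, a cytochrome P450 gene that promotes grain size, 4 table rows away on chromosome 7. It had 2.48, 1.02 and 3.43 TPM in sg34, against 15.1, 5.54 and 8.57 TPM in WT. All sg34 libraries were lower, and deposited groups lay apart in either direction for 21.6% of tested rows. The log2 difference of CYP78A13 was -1.26 ± 0.30 (SE, n = 3 each, limma's adjusted p = 0.0823). In the fit with library weights limma's adjusted p was 0.00850, and 23.1% of tested rows passed. Among 70 rows within 5 rows of the 7 genes, 30 were tested, 1 was higher and 0 were lower by limma, and 4 had an unadjusted p under 0.05, so neither count exceeds the 3.76% and 17.3% of all tested rows. The 1 that rose, LOC_Os05g06630, lies 3 rows from GS5, and its nearest protein match is a putative protease Do-like 14. It had 10.9, 12.5 and 14.9 TPM in sg34 and 12.1, 3.84 and 8.59 TPM in WT, values that overlapped until rescaled, and a log2 difference of 1.18 ± 0.21 (SE, limma's adjusted p = 0.0327). That call was lost without sg34 replicate 1, 2 or 3 or WT replicate 3 (limma's adjusted p = 0.146, 0.172, 0.0913 and 0.0843), without rescaling (0.364), with no filter (0.0513) and with the replicate block (0.170).

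SRS5, an alpha-tubulin gene in which a mutation gives small round seeds, had 279.6, 398.2 and 701.9 TPM in sg34, against 1993, 880.9 and 1293 TPM in WT. The groups did not overlap, as for 21.6% of tested rows on the deposited scale. The log2 difference of SRS5 was -1.09 ± 0.32 (SE, limma's adjusted p = 0.145). With library weights limma's adjusted p was 0.0130, in a fit where 23.1% of tested rows passed. Of 12 tested genes of that list, which also holds CYP78A13, 0 passed by limma, and 1 higher and 3 lower had an unadjusted p under 0.05, beside 8.82% and 8.44% of all tested rows. Log2 differences in the list ran from -1.26 to 1.34, with 4 positive and 8 negative.

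GRF4 took 6.40%, 3.14% and 4.01% of the summed TPM of the 12 growth-regulating factors in sg34, against 2.68%, 3.47% and 7.45% in WT. The groups overlapped, and the mean share was 4.52% ± 1.69 in sg34 and 4.53% ± 2.56 in WT (SD, n = 3 each). GRF11 led the family with 24.7% to 49.99% over the 6 libraries. Of 7 tested genes of that list 0 passed by limma, and 1 higher and 0 lower had an unadjusted p under 0.05, where all tested rows had 8.82% and 8.44%. In the list 6 log2 differences were positive and 1 negative, with a median of 0.37, or -0.06 without rescaling. GRF8 had 2.23, 1.30 and 2.57 TPM in sg34 and 0.82, 0.82 and 1.86 TPM in WT. Its log2 difference was 0.79 ± 0.27 (SE, limma's adjusted p = 0.200), or 0.58 without WT replicate 1. GRF6 had a log2 difference of 0.74 (limma's adjusted p = 0.453), or 0.23 without WT replicate 1 and 1.17 without WT replicate 3. GIF1, the coactivator that growth-regulating factors bind, was below the filter, with 0.47, 0.52 and 0.98 TPM in sg34 and 2.66, 0.58 and 2.71 TPM in WT.

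Genes for cell division and wall loosening, the processes these regulators act on, did not pass either. Of 7 tested cell cycle genes 0 passed by limma, and 1, the cyclin-dependent kinase gene CDKA2, was lower with an unadjusted p under 0.05 (8.44% of all tested rows). Of the 7 log2 differences 5 were positive and 2 negative, with a median of 0.35, or -0.06 without rescaling. CDKA2 had 3.37, 5.63 and 8.13 TPM in sg34 and 20.4, 9.58 and 11.9 TPM in WT, a log2 difference of -0.69 ± 0.22 (SE, limma's adjusted p = 0.172). The mitotic cyclin gene CYCB2-2 had a log2 difference of 0.58 ± 0.59 (SE, limma's adjusted p = 0.625). Of 6 tested expansin genes 0 passed by limma, and 1, EXPA10, was lower with an unadjusted p under 0.05 (8.44% of all tested rows). EXPA10 had 10.3, 13.2 and 24.4 TPM in sg34 and 48.7, 23.7 and 46.1 TPM in WT, a log2 difference of -0.77 ± 0.23 (SE, limma's adjusted p = 0.149, or 0.00709 with library weights), and EXPA5 one of -0.68 (limma's adjusted p = 0.490), or -0.10 without WT replicate 1. Without WT replicate 1, where the hull and cell cycle sums were highest, the log2 difference was -0.54 for RGA1, -0.66 for SPL19, -0.81 for EXPA10, -1.02 for SRS5, -1.10 for CYP78A13 and -0.61 for CDKA2.

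**Figure D5:**
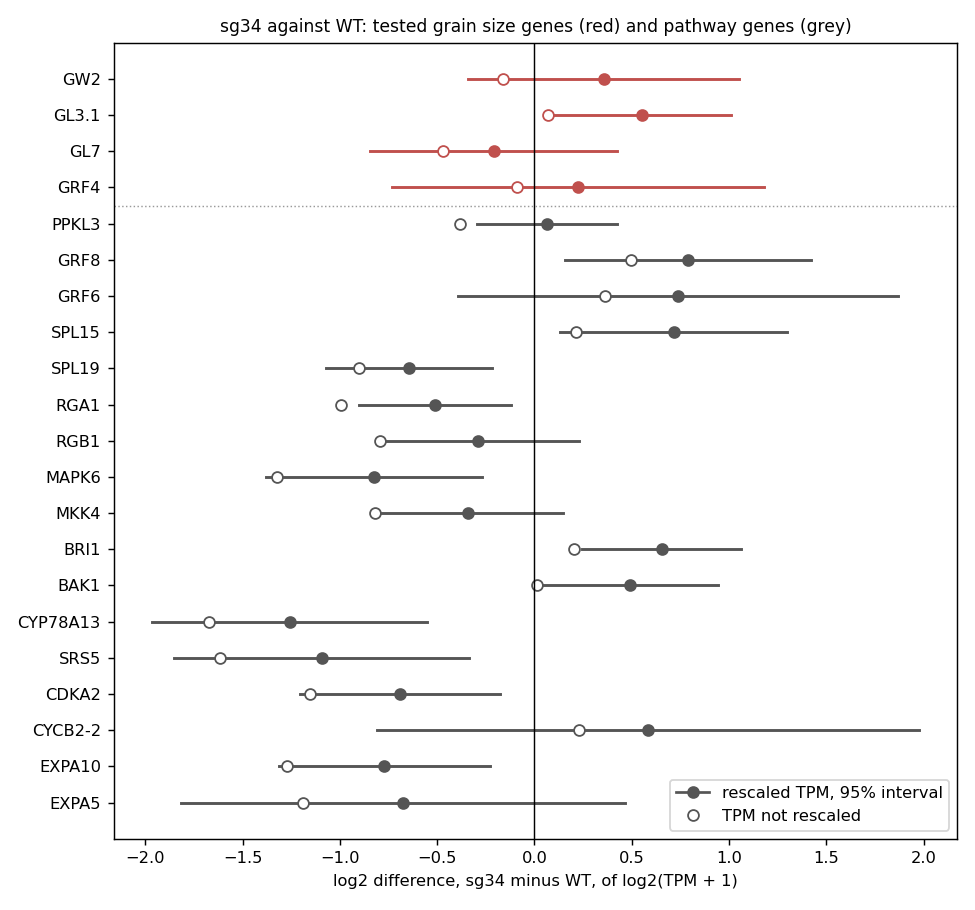
Filled points show the log2 difference of log2(TPM + 1), sg34 minus WT, after rescaling, with 95% intervals as lines, for the 4 tested grain size genes (red) and 17 pathway genes (grey), and open points the same without rescaling. The interval of GL3.1 runs from 0.10 to 1.01, those of GW2, GL7 and GRF4 cross 0, and the open points lie left of the filled ones.

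The rows whose rescaled log2 values followed each tested gene most closely over the 6 libraries were sought as a description. They were a putative lipoxygenase 5 gene (LOC_Os05g28770, Pearson r = 0.997) and a glyoxysomal beta-oxidation gene (LOC_Os01g24680, 0.995) for GW2, and a vacuole membrane protein 1 gene (LOC_Os07g38380, 0.997) and an alpha/beta hydrolase gene (LOC_Os02g55330, 0.996) for GL3.1. For GL7 they were a galacturonosyltransferase 8 gene (LOC_Os06g12280, 0.993) and a TEBICHI helicase and polymerase gene (LOC_Os12g19370, 0.993). For GRF4 they were a QWRF motif gene (LOC_Os10g20510, 0.983) and a receptor-like kinase gene (LOC_Os01g44110, 0.978). With 6 libraries many rows reach such values: r exceeded 0.95 for 116 described rows with GW2, 143 with GL3.1, 52 with GL7 and 16 with GRF4. Without rescaling r was -0.39 and 0.80 for the rows named with GW2, 0.14 and 0.18 with GL3.1, 0.98 and 0.91 with GL7, and 0.88 and 0.93 with GRF4, so the likeness of both rows to GL3.1, and of the lipoxygenase gene to GW2, was not seen without rescaling.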

How the data were processed

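The authors deposited values in TPM with 2 decimals, under a name that refers to counts, so no count test was used. The submitters' processing notes list Bowtie2, HISAT2 2.1.0, RSEM, StringTie and DESeq2 1.12.4 without saying what each did. They name the mouse build mm10, which does not match rice locus IDs. The rice build is not given in the sources used here, so no coordinates are printed. Libraries were made with the SMARTER mRNA-Seq kit, per the labels. Mutant columns named sg31 to sg33 were matched by replicate number to the sg34 libraries, the only mutant of the series. Deposited mean columns differed from the library means by over 0.0001 TPM in 0 cases.

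The 16917 rows reaching 1 TPM in 3 or more libraries were rescaled with unweighted trimmed means (TMM, trims of 30% and 5%). Their log2(TPM + 1) values were compared in limma 3.58.1 (R 4.3.3) using a variance trend, and p-values were adjusted by Benjamini-Hochberg over all of them, with a threshold of 0.05. Rescaling multiplied libraries by 0.602 (WT replicate 1) to 1.42 (sg34 replicate 1). The fit was also run on simulated data with independent normal values and no library as deviant as WT replicate 1. That run cannot say how large a change would be missed in these libraries. Members and lists were chosen with earlier results of these data known. The genes named were all members, in each list the genes past the threshold and the 2 tested genes with the smallest p, neighbouring rows past the threshold, and the 2 described rows most alike to each tested member. WTG1, GSK2, RGG2, DEP1, GIF1, GRF5, GRF7, GRF11, SPL3, SPL4, SPL6, SPL11, SPL14 and PPKL2 were added outside that rule. They were added for their role or after their values were seen. Alternatives were other pseudocounts, filters and scalings, no trend, library weights, a replicate block and leaving out each library. Family shares within a library were added after seeing the data.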

Additional observations from a re-analysis of the deposited data

How the results depend on the processing

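Of the tested grain size genes, 0 were called by limma under the alternatives except with library weights, where 1, GL3.1, passed. Most alternatives covered 4 of these genes, the stricter filter only GW2 and GL3.1, and the fit without a filter all 7. With library weights 2137 rows were higher and 1779 lower, against 320 and 316 in the reported fit, 13 genes of the wider lists and 4 neighbouring rows passed, and the cause was not tested. At least 5 TPM in 3 libraries gave 129 higher and 140 lower rows, from fewer rows tested. No rescaling gave 186 higher rows and 0 called neighbouring rows. The replicate block gave 131 higher and 123 lower rows and 0 neighbouring rows. No pairing by replicate number was seen: deviations of libraries from their group means correlated, number by number, at -0.54, 0.0032 and -0.37. With 3 libraries per line these values cannot settle whether libraries were paired. Leaving out each library gave 165 to 364 higher rows, 155 to 370 lower rows, and 0 to 1 neighbouring rows. Signs turned without rescaling for GW2 (-0.16), GRF4 (-0.088), PPKL3 (-0.38) and GSK2 (-0.11), with library weights for GRF4 (-0.54) and WTG1 (0.015), without sg34 replicate 1 for GRF4 (-0.043), without WT replicate 1 for GRF4 (-0.052) and WTG1 (0.11), and without WT replicate 3 for GL7 (0.011). With each library left out in turn, log2 differences ran from 0.22 to 0.59 for GW2, from -0.45 to 0.011 for GL7, from -0.052 to 0.60 for GRF4, from -0.25 to 0.11 for WTG1, from 0.019 to 0.50 for GSK2, from 0.23 to 1.17 for GRF6, from 0.14 to 1.1 for CYCB2-2, from -0.39 to -0.14 for RGB1 and from -0.65 to -0.15 for RGG2. TPM keep no depth, so no detection limit can be set for GW5, SPL16 and GS5.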
